A study of Mus musculus with 3 samples.

Results

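The T cell receptor alpha locus supplied 188 of the 55536 annotated genes measured here, namely 128 variable (Trav) and 60 joining (Traj) segments. They were chosen by name, as every gene whose GENCODE M21 symbol begins with Trav or Traj. The RNA came from CD4-positive, alpha-beta T cells of the effector memory kind, which are antigen-experienced helper T cells, of 1 male C57BL/6J mouse aged 7 months. The polyadenylated RNA was made into 3 libraries, labelled as technical replicates of 1 biological replicate and called libraries 1, 2 and 3. They form 1 group with no second condition and no named treatment or genetic change, so every SD and p-value measures technical spread within 1 mouse. How the cells were sorted is not given in the sources used here.

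Each alpha chain is encoded by a gene that a developing thymocyte assembles by joining 1 V segment to 1 J segment, which is then spliced to the constant gene Trac. The V segment encodes most of the variable domain, and the V to J joint encodes the third contact loop that meets peptide. In C57BL/6 mice a stretch of the V region is present in repeated copies, and symbols carry d or n for the copies in the inserted stretches and no letter for the others. Segments with dv in the symbol can also be joined into a delta chain, whose own genes lie within the same locus, among the last Trav segments and between them and the Traj segments. In mature cells the rearranged gene is fixed, so segment transcripts reflect the rearranged genes that are transcribed, weighted by how much RNA each clone makes. Whether each transcript encodes a receptor in use, or was spliced at all, is not shown by these counts. In bulk RNA a larger number of cells using a segment and more receptor RNA per cell cannot be told apart.

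The copies that carry most of the Trav counts differ at few bases, which is why they are shown first. The last 280 bases of the 3 leading Trav14 copies, from the GENCODE M21 transcripts on GRCm38 (mm10), plus strand of chromosome 14, end at the V segment's 3′ border. Trav14d-3-dv8 is at chr14:53078766-53079045, Trav14n-3 at chr14:53370296-53370575 and Trav14-3 at chr14:53763415-53763694, all in the exon that encodes the variable domain. Capitals mark the 11 positions at which the 3 copies are not all the same.
Trav14d-3-dv8: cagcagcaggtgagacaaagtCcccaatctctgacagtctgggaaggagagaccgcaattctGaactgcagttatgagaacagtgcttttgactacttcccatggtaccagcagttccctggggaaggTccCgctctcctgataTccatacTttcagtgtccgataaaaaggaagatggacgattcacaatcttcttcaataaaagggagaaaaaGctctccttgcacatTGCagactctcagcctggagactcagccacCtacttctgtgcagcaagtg
Trav14n-3: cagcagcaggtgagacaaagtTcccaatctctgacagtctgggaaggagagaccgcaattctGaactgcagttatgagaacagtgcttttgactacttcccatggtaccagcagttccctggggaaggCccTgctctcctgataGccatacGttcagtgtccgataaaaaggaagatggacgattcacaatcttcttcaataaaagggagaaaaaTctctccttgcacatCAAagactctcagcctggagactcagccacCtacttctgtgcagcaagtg
Trav14-3: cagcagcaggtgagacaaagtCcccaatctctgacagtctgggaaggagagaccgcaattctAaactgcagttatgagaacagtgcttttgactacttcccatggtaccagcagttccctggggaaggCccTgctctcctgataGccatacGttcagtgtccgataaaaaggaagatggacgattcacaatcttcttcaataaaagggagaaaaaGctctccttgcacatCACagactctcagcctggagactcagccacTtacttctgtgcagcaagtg
Over these 280 bases Trav14d-3-dv8 and Trav14n-3 differed at 9 positions (96.8% identity), Trav14d-3-dv8 and Trav14-3 at 8 (97.1%), and Trav14n-3 and Trav14-3 at 5 (98.2%). The longest stretch without a difference was 65 bases.

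Other copies could not be separated by sequence at all, or only by 1 base. The transcript of Trav7d-2 is 337 bases long and that of Trav7-2 is 336, with no difference over the shared 336 bases. Trav11, 343 bases, likewise has 1 base more than Trav11d, 342 bases. Only the 3′ ends are shown, on the plus strand, with the extra base in capitals: Trav7d-2 at chr14:52684412-52684472, Trav7-2 at chr14:53391083-53391142, Trav11 at chr14:53519799-53519859 and Trav11d at chr14:52824853-52824912.
Trav7d-2: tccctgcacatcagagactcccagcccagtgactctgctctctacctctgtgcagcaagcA
Trav7-2: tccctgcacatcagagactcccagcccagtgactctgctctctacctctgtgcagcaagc
Trav11: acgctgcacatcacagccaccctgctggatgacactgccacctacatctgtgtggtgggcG
Trav11d: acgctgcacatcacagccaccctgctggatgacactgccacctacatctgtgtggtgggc

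Joining segments are short and each has its own sequence. The 5 with the most counts and Traj18, the segment of the invariant natural killer T cell receptor, are shown whole. Capitals mark the joining motif, which encodes phenylalanine or tryptophan, then glycine, any residue and glycine, searched as TTTGGNNNNGG, TTCGGNNNNGG and TGGGGNNNNGG.
Traj4: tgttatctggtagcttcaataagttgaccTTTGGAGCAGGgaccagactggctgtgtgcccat
Traj32: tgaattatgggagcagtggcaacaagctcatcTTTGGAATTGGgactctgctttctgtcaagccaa
Traj15: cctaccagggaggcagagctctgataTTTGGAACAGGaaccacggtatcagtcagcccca
Traj21: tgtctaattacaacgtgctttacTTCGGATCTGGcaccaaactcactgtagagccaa
Traj33: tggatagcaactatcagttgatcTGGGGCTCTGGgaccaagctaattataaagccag
Traj18: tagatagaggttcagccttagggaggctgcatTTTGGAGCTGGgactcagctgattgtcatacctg
They lie on the plus strand of chromosome 14 at chr14:54216291-54216353, chr14:54186101-54186166, chr14:54204422-54204481, chr14:54198790-54198846, chr14:54185358-54185414 and chr14:54200777-54200842. The motif was present on the sense strand of 44 of 51 Traj genes and 1 of 9 Traj pseudogenes, and on the other strand of none. In the first 60 bases of 141307 other transcripts it was present in 1.84% on the transcript strand and in 3.17% on either strand. The 44 genes with the motif held 288, 272 and 240 Traj counts in libraries 1, 2 and 3. The 7 genes without these letters held 15, 19 and 9, and Traj19 supplied 4, 11 and 6 of them.

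Receptor alpha RNA was abundant and the delta genes of the same locus were almost silent. Gene counts summed to between 14152590 and 16251564 per library. Trav segments took 6892.4, 6625.1 and 5861.0 expected counts in libraries 1, 2 and 3, or 0.0424%, 0.0445% and 0.0414% of gene counts. An expected count is an estimate that divides a read matching several genes among them. Traj segments took 304, 295 and 251. The summed TPM, a share of transcripts corrected for length, was 2092 ± 137 for Trav (SD, n = 3) and 2790 ± 209 for Traj, beside 3271 ± 341 for Trac. Summed Trav TPM was therefore 0.641 ± 0.0245 of the Trac TPM, and summed Traj TPM 0.855 ± 0.0251. The Traj value rests on few reads. The labels give fragments of 100 to 300 bases. A Traj transcript is 29 to 72 bases long (median 61), and its effective length, the number of positions at which a read could start, was 0 to 23. In counts, Trav exceeded Traj by 22.8 ± 0.466 times.

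The lineage of the labelled cell type was checked against marker genes. The lists held no marker of the effector memory state, so that part of the label was not checked. Cd4 was at 476 ± 4.74 TPM. All 8 alpha-beta T markers were at 10 TPM or more, with Trac highest at 3271 ± 341 TPM, then Trbc2, a beta constant gene, at 2412 ± 4.48, and Trbc1, the other beta constant gene, at 779 ± 16.0. The 5 gamma-delta markers found by symbol were all under 1 TPM, and Trdc, the delta constant gene, was at 0 counts in every library, which allows up to 3. Their summed level was 0.380 to 1.10 TPM, and the symbols Trgc1, Trgc2 and Trgc4 were not found. Of the 11 delta genes inside the alpha locus, Trdc included, 9 were at 0 in every library, and Trdv1 and Trdv2-1 had 1 count each. Cd8a was at 0.0433 ± 0.0153 TPM and Cd8b1 at 4.16 ± 0.887, and the 3 B cell markers summed to 0.730 to 0.860 TPM. Of 5 immature thymocyte markers only Cd1d1 reached 1 TPM.

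The genes that cut and join receptor segments ranged widely in level. Of 12 listed genes 9 were at 1 TPM or more. Rag1 and Rag2, which encode the recombinase, were at 0.197 ± 0.100 and 0.0433 ± 0.0751 TPM, and Dntt, which adds untemplated bases at joints, was at 0.0733 ± 0.0635. The highest were the end-joining genes Xrcc6 at 31.8 ± 5.61 TPM, Xrcc5 at 25.4 ± 2.54 and Xrcc4 at 18.3 ± 0.703. Xrcc5 and Xrcc6 encode the Ku proteins that bind broken ends. Of the other listed genes, Prkdc was at 16.2 ± 1.36 TPM, Dclre1c at 14.2 ± 1.27 and Polm at 10.4 ± 1.41. Nhej1 at 5.60 ± 0.923, Poll at 4.61 ± 1.07 and Lig4 at 1.31 ± 0.603 were lower.

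Counts of V segments were uneven along the locus. Trav segments span 1550 kb, from 52427928 to 53977678 on chromosome 14, and all lie on the plus strand. Of the 128, 99 had a count in some library, 74 in every library, and 29 in none. In libraries 1, 2 and 3 a segment at 0 counts allows up to 3, or 0.0435%, 0.0453% and 0.0512% of Trav counts. The 20 annotated pseudogenes, which cannot encode a full chain, together held 21.2, 34.6 and 30.5 counts, and 11 of them had none. The median segment had a mean count of 4.14. The 9 segments with a share of 1% or more held 81.4% of Trav counts: Trav14d-3-dv8, Trav14n-3, Trav14-3, Trav7d-2, Trav9n-4, Trav4-3, Trav3d-3, Trav3n-3 and Trav14-2.

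**Figure D1:**
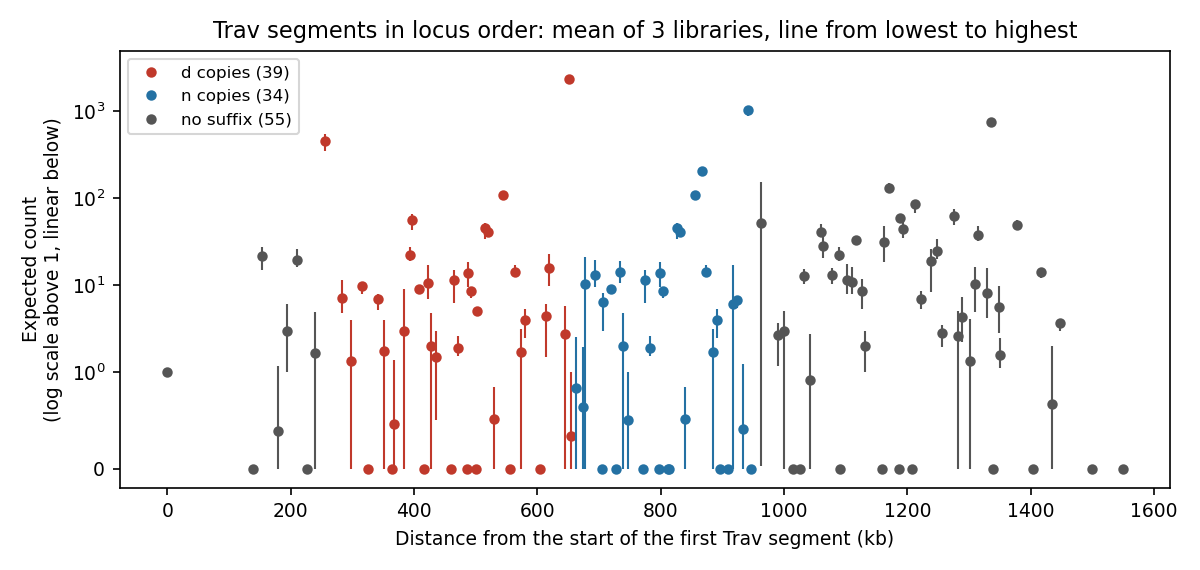
Expected count of each Trav segment (y axis, log scale above 1 and linear below) against distance from the start of the first segment (x axis, kb). Points are means of 3 libraries, lines run from the lowest to the highest library, and colour gives the copy class. The highest points of the d, n and unlettered classes are Trav14d-3-dv8 at 2384, Trav14n-3 at 1040 and Trav14-3 at 747.

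By copy class, the d copies took the most counts. The 39 d copies, which lie together over 399 kb, held 3514.0, 3361.1 and 2873.2 counts in libraries 1, 2 and 3, a share of 50.2% ± 1.07. The 34 n copies, over the next 284 kb, held 24.2% ± 0.388. The 55 segments without a letter held 25.5% ± 1.34. Of these last, the 47 downstream of the n copies, over 587 kb, held 24.8% ± 1.45, and the 8 upstream of the d copies held 0.723% ± 0.142. Trav14d-3-dv8 alone gave 2384 of the 3249 counts that the d copies held on average. The division between classes differed between the deposited tables. In the second deposited gene table, which holds whole-number counts, the d copies held 26.8% of Trav counts, the n copies 17.3% and segments without a letter 55.9%. That table uses an older annotation with 99 of the 128 Trav segments, and Trav7d-2 is not among them. The part of the annotation and that of the counting method in this difference cannot be told apart. The second table holds fewer Trav counts, 1305, 1256 and 1196 in libraries 1, 2 and 3. Its counts and those here are therefore not directly comparable, and the drop was not the same for every segment.

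Across segments, start position and mean TPM had a Spearman rho of 0.11 over the 128 Trav. Neighbouring segments are not independent and copies share reads, so this describes these libraries only.

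The Trav14 subfamily led in every library. Its 9 members held 4636.0, 4555.0 and 3858.0 counts, and the exact 95% binomial (Clopper-Pearson) intervals of its share were 66.1 to 68.4%, 67.6 to 69.9% and 64.6 to 67.0%. These intervals cover counting error only, since copies of 1 molecule made by PCR are not independent. Library 2 had the highest share and library 3 the lowest, and their intervals did not overlap. The next subfamilies were Trav7 at 8.85% ± 0.703, Trav9 at 5.32% ± 0.630, Trav3 at 4.09% ± 0.411 and Trav4 at 2.76% ± 0.384. The Trav7 and Trav14 shares were far apart against the spread between libraries. Trav13 at 2.49% ± 0.226 and Trav12 at 2.31% ± 0.178 did not differ beyond their spread. In all, 19 of 23 subfamilies had a count, and the single-member subfamilies Trav2, Trav18, Trav22 and Trav23 had none.

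**Figure D2:**
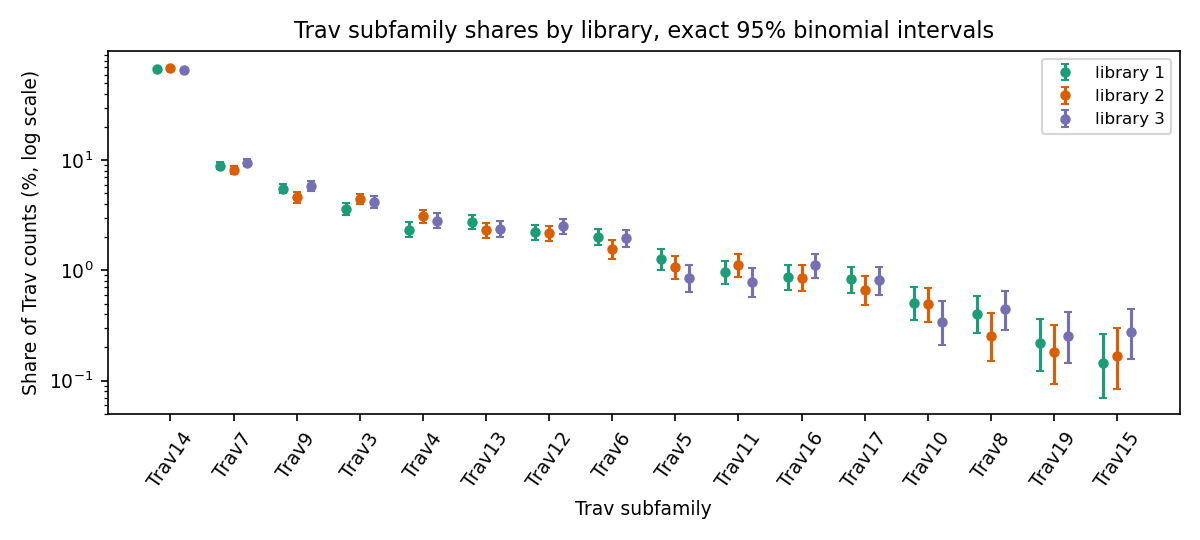
Share of Trav counts (y axis, %, log scale) for the 16 Trav subfamilies with a mean count of 10 or more (x axis), 1 point per library with its exact 95% binomial interval. Trav14 stands at 65.8 to 68.8% in the 3 libraries, and Trav7, the next, at 8.13 to 9.53%.

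Within Trav14, the 3 copies numbered 3 supplied 64.5% ± 1.46 of all Trav counts. Trav14d-3-dv8, which can also join delta segments, had 2524.86, 2476.04 and 2150.97 counts in libraries 1, 2 and 3, or 637 ± 45.0 TPM. Trav14n-3 had 1125.29, 1117.04 and 876.33 counts, or 419 ± 54.8 TPM. Trav14-3 had 799.44, 775.43 and 665.87 counts, or 242 ± 17.9 TPM. Library 3 had the fewest counts of all 3 copies, and within each library the order of the copies was the same. The ranges of the 3 copies did not overlap on either scale. Over their whole transcripts, which extend beyond the bases shown above, 61.2%, 53.8% and 43.3% of the 50-base stretches of Trav14d-3-dv8, Trav14n-3 and Trav14-3 occurred in no other gene. The deposited posterior SD, which measures how uncertain the division of shared reads is, was 0.926%, 2.37% and 3.26% of the count. In the second table Trav14d-3-dv8 also led, with 321, 313 and 311 counts. There Trav14-3, with 202, 204 and 193, exceeded Trav14n-3, with 178, 172 and 165.

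The other Trav14 members were low. Trav14-2 had 96.01, 91.41 and 67.95 counts, 34.6 ± 4.83 TPM, and Trav14-1 had 11.78, 8.52 and 5.27. Trav14d-2 and Trav14n-2 had the same 39.31, 41.94 and 41.09 counts each, with a posterior SD of 45.1% and 45.3% of the count. Trav14d-1 and Trav14n-1 also had equal values, of 0, 1.34 and 4.72. Such equal values mark copies without any 50-base stretch of their own.

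The 10 dv segments, able to serve either chain, held 37.6% ± 0.371 of Trav counts. Nearly all of that was Trav14d-3-dv8, at 36.9% ± 0.410. The next was Trav16d-dv11 with 22.58, 15.24 and 9.84 counts, followed by Trav13-4-dv7 with 15.59, 4.83 and 4.17. With Trdc at 0, these dv transcripts appeared without measurable delta constant RNA.

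Trav7 gave the clearest case of a value that moved between copies. Trav7d-2 had 554.75, 462.97 and 346.39 counts in libraries 1, 2 and 3, and Trav7-2 had 0.25, 0.03 and 154.61. Library 3 was thus lowest for Trav7d-2 and alone in a sizeable count for Trav7-2. The 2 genes summed to 555.0, 463.0 and 501.0. Their posterior SDs were nearly equal, at 130.28, 81.90 and 123.95 counts for Trav7d-2 and 130.29, 81.90 and 123.93 for Trav7-2. Only 0.347% of the 50-base stretches of Trav7d-2 and none of Trav7-2 were their own, since a single end base separates the transcripts shown above. In the second table Trav7-2 had 30, 19 and 22 counts. The remaining 11 members of the subfamily were far lower: the highest of them by mean count, Trav7-4, had 12.00, 15.33 and 10.33.

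In Trav9, Trav9n-4 had 216.61, 189.00 and 205.64 counts, 40.6 ± 1.96 TPM, and its d partner Trav9d-4 had 0 in every library. Trav9-1 had 35.58, 51.00 and 36.65, Trav9-2 had 47.70, 18.69 and 29.15, and Trav9-4 had 34.30, 19.75 and 19.87. Here the n copy led, with 11.0% of its 50-base stretches to itself. The 0 of Trav9d-4 carried a posterior SD of 8.24, 5.92 and 7.66 counts in libraries 1, 2 and 3. Among the 4 pairs of d and n copies of Trav9, numbers 2 and 3 had equal values in both copies.

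In Trav3, Trav3d-3 and Trav3n-3 had 108.37, 115.68 and 101.64 counts each, 43.1 ± 6.07 TPM, and share every 50-base stretch. Their posterior SDs were 43.2% and 43.1% of the count. In the second table Trav3d-3 had 0 in every library and Trav3n-3 had 0, 1 and 0. Trav3-3, which has 60% of its stretches to itself, had 8.38, 26.26 and 22.89 counts, and 14, 18 and 16 in the second table. Trav3-1 had 21.76, 27.64 and 15.03.

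In Trav4, the unlettered Trav4-3 led with 122.05, 150.73 and 125.92 counts, 40.2 ± 6.62 TPM, and library 2 was highest. Its posterior SD was 1.54% of the count. The d and n copies of the subfamily were low, with Trav4d-4 and Trav4n-4 at 12.88, 16.88 and 12.89 each and Trav4d-3 and Trav4n-3 at 1.52, 1.53 and 2.58 each. The letter of the leading segment thus differed between subfamilies, being d in Trav14 and n in Trav9, while Trav4 was led by a segment without one. For Trav7 and Trav3 the letter was not measured, since the leading copies could not be separated.

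**Figure D3:**
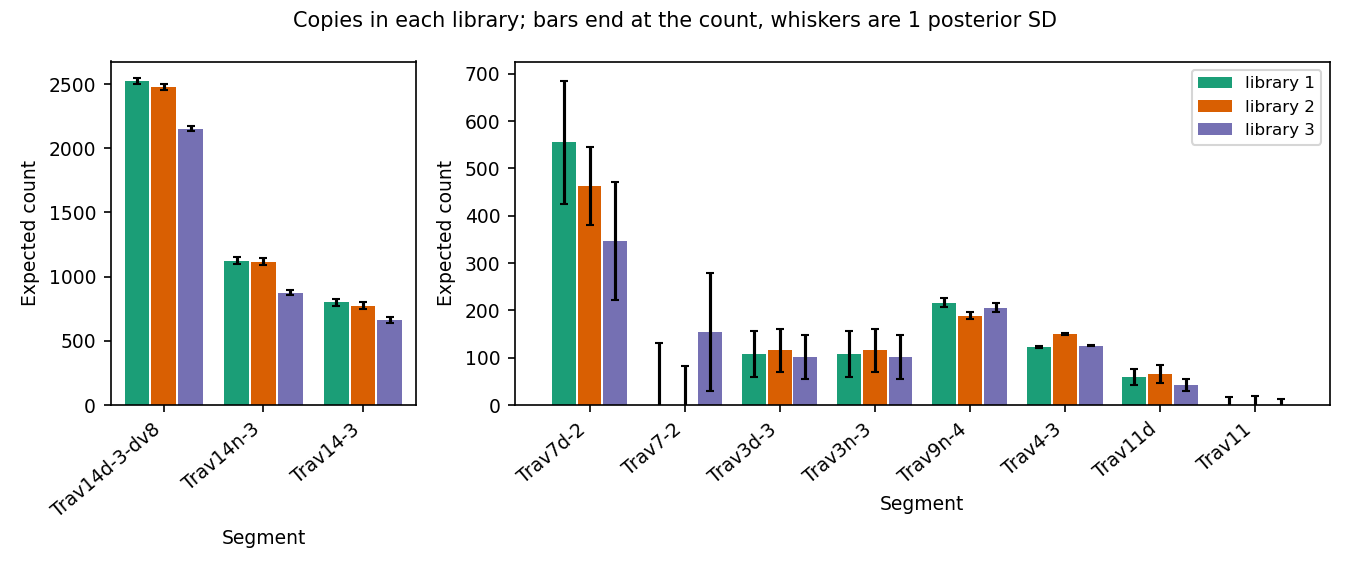
Expected counts (y axis) of 11 Trav segments in each library (x axis, segment; colour, library), with whiskers of 1 posterior SD and the lower end cut at 0. The Trav14 copies on the left have short whiskers, while Trav7d-2 and Trav7-2 on the right have whiskers of 81.90 to 130.29 counts.

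Segments of the innate-like receptors were present at low or mixed levels. Invariant natural killer T cells pair Trav11 with Traj18. Trav11d had 58.78, 66.04 and 43.04 counts, 20.8 ± 4.42 TPM, and Trav11 had 0 in every library with a posterior SD of 16.92, 19.28 and 12.68 counts. The pair, which a single end base separates, held 0.861% ± 0.131 of Trav counts, so which of the 2 genes the reads came from was not measured. Traj18 had 10, 8 and 8 counts, or 3.06% ± 0.308 of Traj counts. Zbtb16, the defining transcription factor gene of these cells, was at 0.160 ± 0.121 TPM (15, 4 and 4 counts), Klrb1c, which encodes the NK1.1 marker, at 18.0 ± 4.19 and Cd1d1 at 50.3 ± 3.29. Cd1d1 encodes the molecule that presents antigen to these cells, is made by other cells too and does not define them. Mucosal-associated invariant T cells pair Trav1 with Traj33. Trav1, whose stretches are all its own, had 1 count in each library, and Traj33 had 15, 16 and 10. Counts per segment do not show which V was joined to which J.

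A smaller share of Trav segments than of all genes differed between libraries. A chi-square test per gene asked whether the 3 counts departed from each library's size by more than counting noise, for genes with 30 or more counts in all. Of 13949 genes tested, 57.2% were called at an adjusted p under 0.05. Of 128 Trav segments 47 were tested and 9 were called (19.1%), and 11 were at an unadjusted p under 0.05. Most Trav segments have fewer counts than most genes, which limits what the test can call, and no test compared the shares. Of 60 Traj segments 8 were tested and none was called, with none at an unadjusted p under 0.05. Of the 9 called segments, library 1 was highest in 2, library 2 in 5 and library 3 in 2. Without library 1 there were 5 called of 36 tested (43.6% of all genes), without library 2 there were 4 of 33 (27.5%), and without library 3 there were 5 of 33 (42.3%).

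The count of called segments fell under stricter variances and in the second table. With the posterior variance of each count added there were 3 called, namely Trav14d-3-dv8, Trav14n-3 and Trav3-3, beside 52.7% of all genes. With chi-square values divided by their median inflation over all genes there was 1, Trav7-2, beside 4.45% of all genes. Of the second table's segments 19 were tested and the chi-square test called 0, with 0 at an unadjusted p under 0.05, beside 27.2% of its genes. That table holds only 1305, 1256 and 1196 Trav counts in libraries 1, 2 and 3, which limits what the test can call.

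The leading Trav14 copies had the same order of highest and lowest library as Trac. The copies share reads, so they are not independent of each other. Trav14n-3 (adjusted p = 3.39e-06) and Trav14d-3-dv8 (adjusted p = 3.66e-05) were highest relative to library size in library 2 and lowest in library 3, by 1.27 and 1.15 times. Trav14-3 followed the same order by 1.16 times (adjusted p = 0.0320). Trac itself, with 23342, 24928 and 20383 counts, was also highest in library 2 and lowest in library 3 (adjusted p = 4.06e-121). The sizes of the changes differed, since summed Trav TPM over Trac TPM was 0.657, 0.613 and 0.654 in libraries 1, 2 and 3. Trav4-3, 1.38 times higher in library 2 than in library 1, was called by a small margin (adjusted p = 0.0470). Some of these calls were lost when 1 library was left out. Without library 2 the adjusted p by the same test was 0.221 for Trav14d-3-dv8, 0.336 for Trav14-3 and 0.419 for Trav4-3. Without library 1 it was 0.225 for Trav4-3, and without library 3 it was 0.192 for Trav14-3. Trav14n-3 was called whichever library was left out.

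Trav7-2 (adjusted p = 6.03e-70) and Trav7d-2 (adjusted p = 2.66e-06, 1.43 times) were called in opposite directions. With the posterior variance of the count added to the counting variance, their adjusted p-values became 0.607 and 0.715. When the 2 genes were summed, the pair was not called (adjusted p = 0.468). Without library 3, Trav7d-2 was not called (adjusted p = 0.385). The other called segments, named after their values were seen, were Trav6n-5 with 0, 10.17 and 20.84 counts (adjusted p = 3.82e-05), Trav3-3 (adjusted p = 0.00597) and Trav9-2 (adjusted p = 0.0146). Without library 1 their adjusted p-values were 0.0964, 0.762 and 0.240, and without library 2 that of Trav9-2 was 0.206. Trav6n-5, with 15.9% of its stretches to itself, had 1 count in every library of the second table.

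Summed by subfamily, 16 rows were tested and 3 were called, beside 57.3% of all rows. Trav14 was highest in library 2 and lowest in library 3, by 1.18 times (adjusted p = 4.43e-12). Trav4 was 1.42 times (adjusted p = 0.00692) and Trav3 1.31 times (adjusted p = 0.0102) higher in library 2 than in library 1. Trav7 as a whole was not called (adjusted p = 0.852, 1.04 times). Library 2 was the highest in all 3 called subfamilies and in Trac. Trav14 was called whichever library was left out. These subfamily tests were not corrected for the inflation of chi-square values, whose median over all rows was 6.47 times that of counting noise. Without library 1 the adjusted p was 0.0819 for Trav4 and 0.0640 for Trav3, and without library 2 it was 0.373 and 0.520.

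How well a segment was measured followed how much sequence it had to itself. No 50-base stretch was unique in 42 of the 128 Trav segments: 20 of 39 d copies, 19 of 34 n copies and 3 of 55 without a letter. These 42 held 643.0, 648.4 and 752.7 counts, and without Trav7-2 the other 41 held 642.7, 648.4 and 598.0. Library 3 was thus the highest with Trav7-2 and the lowest without it. Of the 42, 16 were tested and 1, Trav7-2, was called, and the tested segments' posterior SD ran from 29.0 to 217% of the count (median 47.8%). Among 18 tested segments with 50% or more of their stretches unique, it ran from 0 to 24.2% (median 6.30%), and 5 were called. Over the 47 tested segments the share of unique stretches and the relative posterior SD had a Spearman rho of -0.87, a description, since copies share reads by construction. Trav17 and Trav19, with every stretch unique, had a posterior SD of 0. Trav17 had 57, 44 and 48 counts here and 58, 49 and 56 in the second table. That table holds fewer Trav counts in all, yet those of Trav17 were not lower in it. The drop was thus not the same for every segment, and its counts are not directly comparable with those here.

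**Figure D4:**
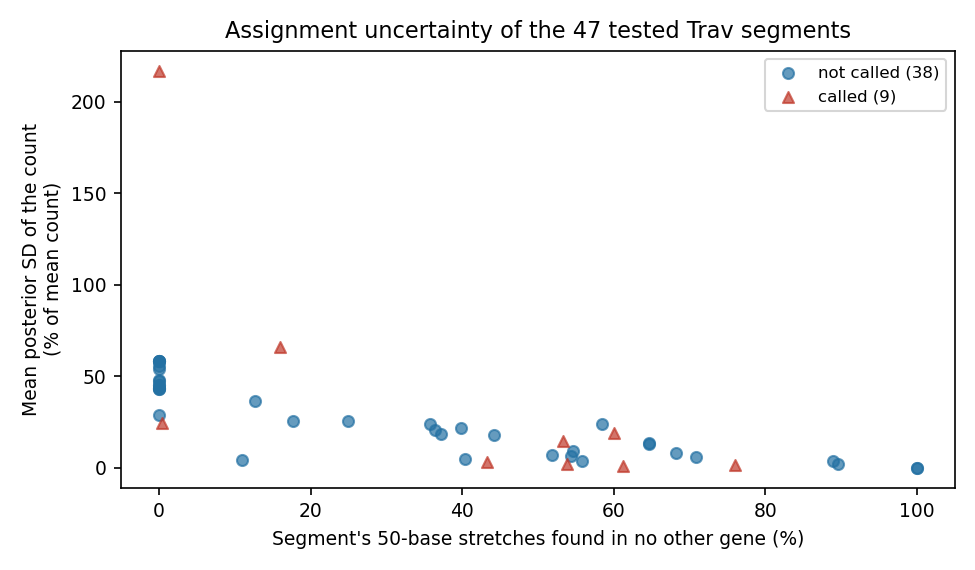
Mean posterior SD as a percentage of the mean count (y axis) against the percentage of a segment's 50-base stretches found in no other gene (x axis) for the 47 tested Trav segments. Triangles are the 9 called segments and circles the others. Trav7-2 is the point at 217%, and the segments with every stretch unique lie at 0.

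Trav segments stood apart from other genes in this respect. Among 23 Trav segments with a mean count of 30 or more, 10 had a posterior SD above 10% of the count (median 7.93%). Among the 14 beta variable (Trbv) segments at that count none did (median 0), and among all 11096 genes 3.85% did (median 0.0189%). Besides Trav7-2, the largest were in Trav14n-2, Trav14d-2, Trav13n-2 and Trav13d-2. Trav13d-2 and Trav13n-2 had 52.22, 49.30 and 34.26 counts each with a posterior SD of 43.6% each. Identical or nearly identical partners were common: 46 Trav segments formed 23 pairs in which 1 copy shared 95% or more of its stretches with the other. Of the tested segments 14 were at 0 in every library of the second table, and all 14 were without a unique stretch.

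Fractions of reads mostly cancelled within subfamilies. Expected counts of 85 of the 128 Trav segments were not whole numbers in every library, within a tolerance of 0.05. Summed by subfamily, 12 of the 14 subfamilies with more than 1 gene were whole in every library. The exceptions were Trav7 and Trav13, whose members share stretches with genes not named Trav. C920008G01Rik shares them with Trav7, and B230359F08Rik, Gm30214 and Gm43650 share them with Trav13.

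Counts were spread over many joining segments. Whether a read came from spliced receptor RNA or from unspliced RNA of the locus was not tested, so these counts do not show use. Traj segments lie within 63.8 kb, from 54155005 to 54218842 on the plus strand, just upstream of Trac. Of 60, 52 had a count in some library and 38 in every library. Of the 8 at 0, 5 were annotated pseudogenes, and 4 had an effective length of 0, so no read could be placed in them. The floor was 0.987%, 1.02% and 1.20% of Traj counts. The posterior SD was 0 for all 60, and no 50-base stretch of a Traj segment occurred in another gene. Traj4, a segment close to Trac, had the most counts, 28, 33 and 18, or 9.19% ± 2.01 of Traj counts. The exact 95% intervals of its share were 6.21 to 13.0%, 7.83 to 15.4% and 4.31 to 11.1%. These overlap, so a difference between libraries was not detectable at this depth.

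After Traj4 came Traj32 with 13, 18 and 17 counts, Traj15 with 14, 17 and 13, Traj21 with 13, 13 and 17, and Traj33 with 15, 16 and 10. The shares of these 4, from 4.78 to 5.72%, did not differ beyond their spread. Next were Traj23, Traj37, Traj43, Traj17 and Traj26, with shares of 4.31 to 2.99%. Traj13 and Traj18, each with the same 26 counts in all as Traj26, had shares of 3.14% and 3.06%. On the length-corrected scale Traj4 was at 205 ± 60.2 TPM, Traj21 at 196 ± 40.7, Traj33 at 186 ± 42.0 and Traj15 at 146 ± 25.4. The ranges of Traj4, Traj21 and Traj33 overlapped, so their order in TPM was not resolved.

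By position, Traj1 to Traj20, the segments nearest Trac, held 111, 116 and 92 counts over 19 genes. Traj21 to Traj40 held 128, 127 and 107 over 20 genes, and Traj41 to Traj61 held 65, 52 and 52 over 21 genes. The shares were 37.5% ± 1.58, 42.6% ± 0.474 and 19.9% ± 2.00, so the distal set was the lowest in every library, with 95% intervals that did not meet those of the middle set. These are shares of counts, not corrected for effective length, which ran from 0 to 23 over the Traj segments. Distance to Trac and mean TPM had a Spearman rho of -0.21 over the 60 segments, as a description of segments in 1 locus. The 9 pseudogenes held 1, 4 and 2 counts.

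**Figure D5:**
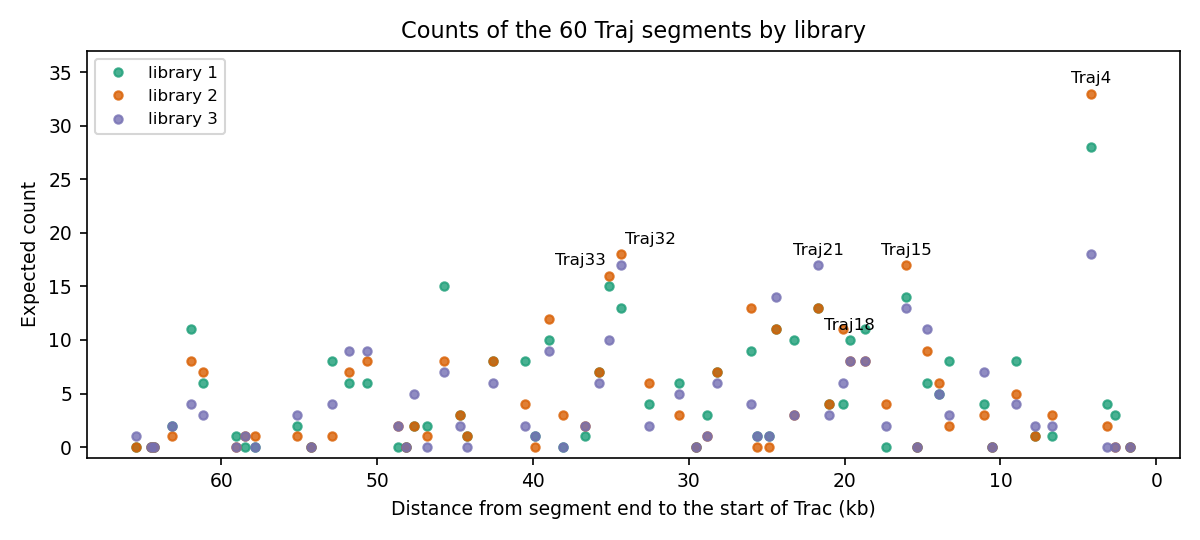
Expected count of each of the 60 Traj segments (y axis) against the distance from its end to the start of Trac (x axis, kb, Trac to the right), 1 point per library. Traj4, near Trac, is highest at 28, 33 and 18, and no segment from Traj41 to Traj61 exceeds the 15 counts of Traj43.

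Other genes of the receptor were tested in the same way. Of the 7 genes of the receptor complex 4 were called between libraries: Trac, Cd3e, Cd3g and Cd247, which encode the alpha constant region and signalling chains. Over all genes 57.2% were called, so this count is near the background. Trbc2 (adjusted p = 0.836) and Trbc1 (adjusted p = 0.791) were not. Of 10 tested genes of the recombination and end joining list 6 were called, also near the background.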

How the data were processed

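Gene tables of 3 polyA RNA-seq libraries were used. Per the file headers, the authors made and deposited expected counts, that is estimated counts in which ambiguous reads are shared out, with posterior mean counts, a posterior SD of the count, and TPM with its bounds. Per the labels these are on mm10, and the annotation is GENCODE M21. The authors also deposited whole-number counts on GENCODE M4 in another gene table, named the second table. Not given in the sources used here are the aligner, quantifier, read length and strand setting, so a segment and an antisense gene cannot be told apart.

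Members and lists were chosen with earlier results of these data known. Expected counts were rounded for testing. Each gene with 30 or more counts in all was tested for equal abundance in the 3 libraries (chi-square), with TMM effective library sizes (edgeR 4.0.16 in R 4.3.3) and Benjamini-Hochberg adjustment over all genes tested, called at 0.05. This test treats reads as independent, and chi-square values over all genes had a median 6.45 times that of counting noise. The test was checked on simulated counts that held counting noise only, so that check does not cover the spread of these libraries. Shares are of the Trav or Traj counts of a library, with exact (Clopper-Pearson) 95% intervals. A count of 0 allows up to 3 counts. Each 50-base stretch of a segment's transcripts was searched on both strands in all GENCODE M21 transcripts. Sequences come from the GENCODE M21 transcripts.

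Named Trav segments are those with a share of 1% or more, the copies in the 5 subfamilies with the most counts, the 5 with the largest relative posterior SD at a mean count of 30 or more, and the 5 with the widest ratio between libraries at a mean count of 100 or more. Named Traj segments are the 10 with the most counts, and Trav11, Trav11d, Traj18, Trav1 and Traj33 are named at any value. Dv segments, segments with every stretch unique and the other called segments were added after their values were seen. Other settings were DESeq2 1.42.0 size factors, total counts, other count minimums, other count columns, sums over copies and leaving out each library. Tests ran in scipy 1.17.1 under Python 3.11.15.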

Additional observations from a re-analysis of the deposited data

How the results depend on the processing

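The number of Trav segments called between libraries was 9 of 47 tested. It was 8 of 47 with either other library size (57.3% and 54.5% of all genes), 10 of 67 and 10 of 99 with minimums of 10 counts and 1 count (49.3% and 25.9%), and 6 of 22 with a minimum of 100 (61.9%). With near-identical copies summed, a setting chosen after seeing the data, it was 9 of 41 (57.2%). It was 3 with the posterior variance added. After division by the median inflation, where 4.45% of all genes were called, it was 1 (Trav7-2, chi-square test, adjusted p = 1.21e-09). It was 3 summed by subfamily, 0 in the second gene table, which holds fewer Trav counts, and 4 to 5 without 1 library. No Traj segment was called under any setting that tested one, with 1 at an unadjusted p under 0.05 with no count minimum and 1 without library 1. A minimum of 100 counts left no Traj segment to test, and the second table gave no Traj value. Trav14's share, 67.3%, was 65.4% of TPM, 59.6% in the second table, 86.1% over the 35 segments with a posterior SD of at most 10% (20 with a count), and 66.5 to 68.0% without 1 library. The d copies' 50.2% was 47.9% with posterior mean counts, 46.0% of TPM, 26.8% in the second table, 48.3% over the certain segments, and 49.9 to 50.9% without 1 library. The n copies' 24.2% was 27.9%, 17.3%, 25.1% and 24.0 to 24.4% under the TPM, second table, certain-segment and left-out settings. The unlettered segments' 25.5% was 27.9% with posterior mean counts, 55.9% in the second table and 24.8 to 26.0% without 1 library. Traj4's share was 8.19 to 10.2% without 1 library and 7.25% of TPM. For the named or called segments tested in the main setting, 221 adjusted p-values stayed on their side of the threshold, 37 lost the call and none gained one. Many of the 221 belong to segments that were not called in the main setting. Other segments did gain calls. With a minimum of 10 counts, 10 were called although Trav4-3 lost its call (chi-square test, adjusted p = 0.0533). With near-identical copies summed, the Trav12d-2 and Trav12n-2 pair (adjusted p = 0.0346) and the Trav9d-2 and Trav9n-2 pair (0.0394) were called. Their single copies were not called in the main setting (0.257 and 0.198). The direction of a difference was not compared between settings. The causes were not tested. No paired analysis was possible because the libraries form 1 group. Depth limits Traj most, with 251 to 304 counts per library.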

Other observations

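The stretch of chromosome 14 from the first Trav segment to Trac also holds 27 annotated genes that carry neither a Trav, Traj nor delta name. Of these, 5 reached 1 TPM and 10 were at 0 in every library. The highest was B230359F08Rik, annotated as a variable segment gene, with 27, 26 and 20 counts, or 7.00 ± 0.895 TPM (SD, n = 3). C920008G01Rik, also annotated as a variable segment gene, had 10.76, 4.72 and 5.58 counts, or 2.27 ± 0.883 TPM, with a posterior SD of 33.9% of the count. Both are V segments by annotation that the choice by symbol leaves out. Gm8704 and Gm3922, processed pseudogenes on the minus strand, had 10, 8 and 5.32 counts each. Gm43650, annotated antisense to the locus and sharing stretches with Trav13, had 24.89, 7.25 and 20.40 counts and was called between libraries (chi-square test, adjusted p = 0.0282). The olfactory receptor genes Olfr1507, Olfr1508 and Olfr1509, which lie among the first Trav segments, were at 0.790 ± 0.327, 0.0200 ± 0.0200 and 0.0700 ± 0.121 TPM.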
